A study of Mus musculus with 8 samples.

Results

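Ubiquitin-specific proteases (USPs) are the largest family of deubiquitinases, and their mRNAs were examined here in mouse tibialis anterior (TA) muscle after electroporation of *Uba1* siRNAs. Members were the genes whose symbol starts with Usp and a number, without pseudogenes and without *Usp18*, a protease of the ubiquitin-like protein ISG15. The rule found 57 of 41709 listed genes, of which 54 encode USPs. The other members are *Usp6nl*, which encodes a GTPase-activating protein for Rab5, and *Usp46os1* and *Usp46os2*, which are RNAs antisense to *Usp46*. One TA muscle of each of 4 C57BL/6J male mice, aged 3 months, received siRNAs against *Uba1* and the contralateral TA received non-targeting (NT) siRNAs, and muscles were collected 7 days later. Each siRNA was a SMARTpool of distinct siRNAs (1500 pmol in 30 μl), and all 8 muscles had been treated with hyaluronidase and electroporated. All NT muscles were right legs and all *Uba1* muscles left legs, so that leg and siRNA cannot be told apart. Titles, descriptions and the study's methods name UBA1 as the target in all 4, but the treatment tags of replicates 2, 3 and 4 read UBA2, UBA3 and UBA4.

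Ubiquitin is activated by E1 enzymes such as UBA1 and is attached to proteins by E2 and E3 enzymes. Deubiquitinases remove it, edit chains and return free ubiquitin to the pool. USPs are cysteine proteases that differ in their substrates and locations, and several have been studied in muscle wasting, among them *Usp19*, *Usp14* and *Usp1*. The question addressed was whether mRNAs of enzymes that remove ubiquitin differ in muscles with less *Uba1* mRNA.

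The catalytic cysteine of USPs lies in the Cys box, a conserved stretch at the start of the protease domain. A pattern for this box, widened after some members had shown no match, was searched in the canonical coding sequences of 53 USPs (GENCODE M39, GRCm39), and it was found in all 53. The *Usp14* sequence was not used here. The pattern allowed only cysteine or aspartate at the catalytic position, so that the search itself limited this residue. In 52 of the 53 the codon there encodes cysteine, as TGC in 32 and TGT in 20. *Usp39*, a component of the spliceosome, carries GAC, an aspartate codon, at this position. The 30 coding bases around this codon, in capitals, are shown 5′ to 3′ on the coding strand for the 5 USPs with the highest mRNA levels, for *Usp12* and its paralog *Usp46*, whose log2FC had opposite signs, and for *Usp39*. The bases lie within exons at chr3:32935584-32935613 (*Usp13*, plus strand, exon 8 of 21), chr9:108372850-108372879 (*Usp19*, plus strand, exon 12 of 27), chr7:111658193-111658222 (*Usp47*, plus strand, exon 5 of 21), chr16:76847407-76847436 (*Usp25*, plus strand, exon 5 of 24) and chr6:72314697-72314726 (*Usp39*, minus strand, exon 5 of 13). They span an intron at chr9:44000462-44001338 (*Usp2*, plus strand), chr5:146700201-146705752 (*Usp12*, minus strand) and chr5:74193155-74197699 (*Usp46*, minus strand). Of the 30 bases of *Usp12* and *Usp46*, 26 are identical.
Usp13: aagaacctgggcaacagtTGCtacctcagt
Usp2: cgaaaccttgggaacacgTGCttcatgaac
Usp19: gtcaacttagggaacaccTGCttcatgaat
Usp47: gtaaaccaggcgatgacgTGCtatttgaat
Usp25: aagaatgtcggcaacaccTGCtggtttagt
Usp12: gtcaattttgggaataccTGCtactgcaac
Usp46: gtcaattttggaaacacaTGCtactgtaac
Usp39: aacaacataaaagccaacGACtatgcaaat

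Levels are given as TPM, transcript abundances corrected for transcript length and scaled to the same total in each muscle, and differences (log2FC, *Uba1* minus NT siRNAs) were computed on log2(TPM + 1), a scale that understates the change of low genes. *Uba1*, on chromosome X, was at 60.6, 59.0, 63.6 and 59.1 TPM in the NT muscles of mice 1 to 4 and at 18.1, 6.77, 15.8 and 23.1 TPM in their *Uba1* muscles. The groups did not overlap, with a log2FC of -1.98 (SE 0.290, adjusted p = 0.0527 from limma, or 0.0278 with the replicate block; exact permutation test, two-sided, p = 0.0286, the smallest that 4 against 4 allow). Myofiber markers (10 of 10 tested) summed to between 142169 and 157178 TPM in NT muscles and between 111703 and 159354 TPM in *Uba1* muscles. Of these 10 genes, 2 were above 0 in log2FC (81.8% of all genes were), with a list median of -0.09, or -0.21 after the median-ratio scaling described below. None was at an unadjusted p under 0.05 in limma with TPM as deposited, and 4 were lower after scaling (6.11% of all genes). Markers of other cells were present in both groups: the leukocyte list summed to between 117 and 347 TPM with NT and between 116 and 376 TPM with *Uba1* siRNAs, and the fibroblast list to between 475 and 992 TPM with NT and between 598 and 1217 TPM with *Uba1* siRNAs. The adipocyte list reached 30.9 to 71.5 TPM with NT and 6.96 to 54.9 TPM with *Uba1* siRNAs. Of the tested genes, 4 of 7 leukocyte markers were above 0 in log2FC (list median 0.0006, or -0.12 after scaling). For fibroblast markers it was 5 of 6 (0.28, or 0.17 after scaling) and for adipocyte markers 0 of 3 (-0.94, or -1.05 after scaling). No listed marker was at 0 in all muscles, and the part of these cells, or of the shift in myofiber markers, in the results was not tested. In whole muscle, fewer cells of a type and less RNA per cell cannot be told apart. Mitochondrial transcripts took between 39.9% and 50.3% of the TPM. In mice 1 to 4 they took 45.7%, 43.9%, 42.1% and 43.2% in the NT legs and 40.2%, 50.3%, 39.9% and 46.5% in the *Uba1* legs. The part of this share in the differences was not tested.

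Of the 57 members, 41 were at 1 TPM or more in at least 4 muscles and were tested, namely 40 USPs and *Usp6nl*. Summed over the 54 USPs, the family took 611.6 ± 41.2 TPM with NT and 666.8 ± 22.2 TPM with *Uba1* siRNAs (n = 4 each, SD), and the sum was higher in the *Uba1* leg of 4 of 4 mice, or of 2 of 4 after median-ratio scaling (637 ± 44.5 and 639.7 ± 42.9). The 5 highest, *Usp13*, *Usp2*, *Usp19*, *Usp47* and *Usp25*, made up between 46.8% and 50.5% of it in each muscle. In NT muscles, 16 USPs had a mean of 10 TPM or more, 10 were between 5 and 10 TPM, 14 between 1 and 5 TPM, 8 above 0 and below 1 TPM, and 6 at 0. *Usp13*, a paralog of *Usp5*, and *Usp2*, a protease whose mRNA is under clock control in many tissues, held the top place in all 8 muscles between them. *Usp13* was the higher one in 5 muscles and *Usp2* in 3. *Usp19*, an enzyme with an isoform anchored in the endoplasmic reticulum, came next, followed by *Usp47*, a protease linked to base excision repair, and *Usp25*, which has a muscle isoform. In NT muscles the ranges of *Usp13* and *Usp2* overlapped, as did those of *Usp47* and *Usp25* and those of *Usp5* and *Usp28*. *Usp19* (51.6 to 54.8 TPM) lay apart from its neighbors in this order.

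**Figure D1:**
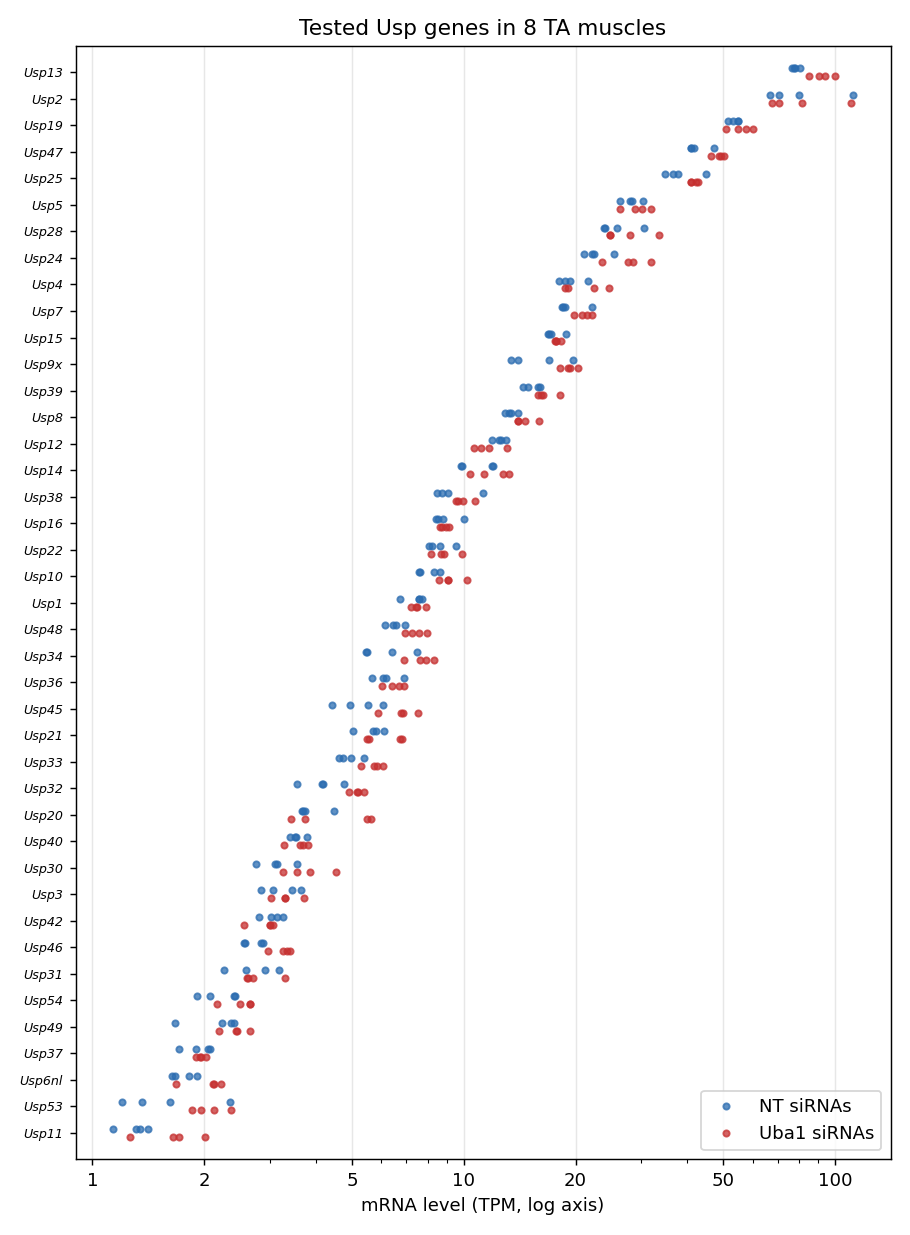
mRNA level of the 41 tested Usp members in TPM (log axis), with a point for each muscle, NT siRNAs in blue and *Uba1* siRNAs in red, ordered by mean level. Levels run from 1.13 TPM (*Usp11*) to 112 TPM (*Usp2*), and the groups are close together for most genes.

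No Usp member passed an adjusted p of 0.05, against 0.0260% of the 11530 genes tested (3 genes; limma, Benjamini-Hochberg). The lowest adjusted p was 0.162, for *Usp13*. With the mouse as a replicate block 0.494% of genes passed and again none of the 41 members, with a lowest adjusted p of 0.108. The log2FC of the members lay between -0.10 (*Usp12*) and 0.32 (*Usp45*), and their 95% intervals between -0.42 and 0.55, so that all 41 intervals excluded a change of 2-fold in either direction. At an unadjusted p under 0.05, 11 of 41 members (26.8%) were higher with *Uba1* siRNAs, against 16.0% of all genes, and 0 were lower, against 1.98%. They are *Usp13*, *Usp32*, *Usp45*, *Usp24*, *Usp47*, *Usp46*, *Usp34*, *Usp33*, *Usp48*, *Usp10* and *Usp9x*. The number was 6 without NT replicate 1 (against 1435 of all 11530 genes), 5 without NT replicate 2 (against 1158), 7 without NT replicate 3 (against 1459), 6 without *Uba1* replicate 1 (against 1422) and 5 without *Uba1* replicate 3 (against 1212). It was 12 without NT replicate 4 (against 1829), 8 without *Uba1* replicate 2 (against 1963) and 10 without *Uba1* replicate 4 (against 2044). The *Uba1* group lay wholly above the NT group for 4 members (9.76%), namely *Usp13*, *Usp32*, *Usp46* and *Usp48*, against 10.6% of all genes, and wholly below it for 0 members, against 1.01%.

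Most genes leaned the same way in these TPM. The median log2FC of all genes tested was 0.11 and 81.8% of them were above 0, and the median of the 41 members was 0.12, with 38 above 0 and 24 above the all-gene median. After median-ratio scaling, which sets the typical gene level between muscles, the all-gene median was 0.0036 and the median of the members 0.00057, with 21 of 41 above 0. On that scale 1 member (2.44%) was higher at an unadjusted p under 0.05, *Usp45*, against 4.57% of all genes, and 1 (2.44%) was lower, *Usp12*, against 6.11%. With the replicate block on that scale 0 members were higher, against 7.19% of all genes, and 2 were lower, *Usp2* and *Usp12*, against 8.47%. Changes of single members are therefore given beside the all-gene median of 0.11 and with the scaled value. The only member whose 95% interval left out the all-gene median was *Usp12* (-0.26 to 0.07). By mouse, the *Uba1* leg was higher for 35, 32, 39 and 20 of the 41 members in mice 1 to 4, while it was higher for 83.3%, 56.1%, 81.8% and 61.8% of all genes. In mouse 4 the members were thus evenly split, and 13 members (31.7%) were higher in 4 of 4 mice, against 32.2% of all genes, while 0 were lower in 4 of 4, against 2.98%. After scaling 3 members (7.32%) were higher in 4 of 4 mice, *Usp13*, *Usp32* and *Usp46*, against 1387 of the 11530 genes. Then 7 (17.1%) were lower in 4 of 4, *Usp2*, *Usp12*, *Usp16*, *Usp19*, *Usp22*, *Usp40* and *Usp42*, against 13.1%.

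**Figure D2:**
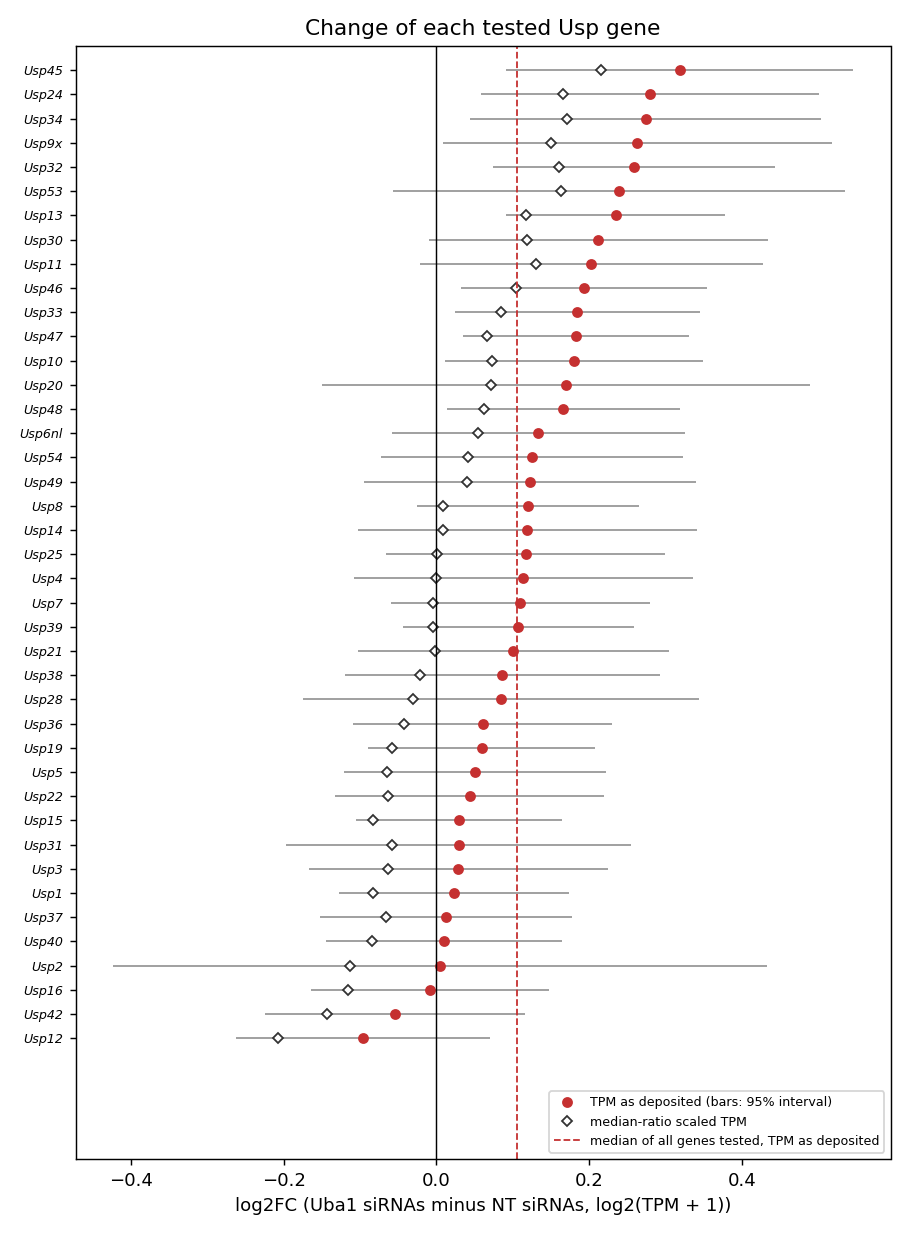
log2FC of each of the 41 tested Usp members (*Uba1* minus NT siRNAs, on log2(TPM + 1)), with TPM as deposited (red points with 95% intervals from limma) and after median-ratio scaling (open diamonds). The dashed line is the median of all genes tested (0.11), and only the interval of *Usp12* leaves it out.

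*Usp13*, listed here with its paralog *Usp5* and with *Usp14*, had the lowest p of the family. It was at 77.5, 80.6, 77.8 and 76.7 TPM in the NT muscles of mice 1 to 4 and at 90.4, 99.8, 94.1 and 85.0 TPM in the *Uba1* muscles. The lowest *Uba1* muscle was above the highest NT muscle, and the mean was 1.18-fold higher (log2FC 0.23, SE 0.0637, adjusted p = 0.162 from limma; exact permutation test, p = 0.0286). After median-ratio scaling its log2FC was 0.12. Its paralog *Usp5*, which takes apart unanchored ubiquitin chains, was at 26.3 to 30.4 TPM with NT and 26.3 to 32.0 TPM with *Uba1* siRNAs, so that the groups overlapped (log2FC 0.05, or -0.06 after scaling). *Usp14*, the protease that trims ubiquitin chains on substrates at the proteasome, was at 9.88, 9.83, 11.9 and 11.97 TPM with NT and at 13.2, 10.4, 12.7 and 11.4 TPM with *Uba1* siRNAs. The *Uba1* leg was higher in 3 of 4 mice, and the log2FC was 0.12 (95% interval -0.10 to 0.34, or 0.0091 after scaling), near the all-gene median. Of the canonical *Usp14* transcript, 49.8% lies under exons of *Thoc1* on the other strand, and the library kit does not mark strand, so its TPM are uncertain.

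Of the 8 tested USPs linked to genome maintenance and the cell cycle, 4 were higher at an unadjusted p under 0.05 (16.0% of all genes were), with a list median log2FC of 0.13. After scaling 1 of the 8 was higher, *Usp45*, and 1 lower, *Usp12* (4.57% and 6.11% of all genes were), with a median of 0.02. *Usp45*, which acts on the repair nuclease subunit ERCC1, had the largest log2FC of the family. It was at 4.95, 4.42, 5.53 and 6.06 TPM with NT and at 7.53, 6.78, 6.87 and 5.89 TPM with *Uba1* siRNAs. The *Uba1* leg was higher in mice 1 to 3 and not in mouse 4 (log2FC 0.32, SE 0.101, adjusted p = 0.182 from limma, exact permutation p = 0.0571). It stayed at 0.22 after median-ratio scaling (adjusted p = 0.434 from limma, or 0.362 with the replicate block). *Usp47* was at 41.8, 40.9, 41.0 and 47.2 TPM with NT and at 46.4, 49.2, 50.1 and 48.6 TPM with *Uba1* siRNAs. NT replicate 4 lay inside the range of the *Uba1* muscles, and the other NT muscles lay below it (log2FC 0.18, adjusted p = 0.210 from limma, or 0.07 after scaling). *Usp48*, a nuclear protease, was at 6.58, 6.44, 6.95 and 6.12 TPM with NT and at 7.58, 6.97, 7.97 and 7.26 TPM with *Uba1* siRNAs, without overlap (log2FC 0.17, adjusted p = 0.247 from limma, or 0.06 after scaling). *Usp28*, which stabilizes MYC, and *Usp37*, which acts on cyclin A, had a log2FC of 0.08 and 0.01 (-0.03 and -0.07 after scaling).

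*Usp1*, *Usp12* and *Usp46* are activated by the same WD40-repeat protein, encoded by *Wdr48*. *Usp46* was at 2.57, 2.87, 2.85 and 2.56 TPM with NT and at 3.34, 3.40, 3.26 and 2.97 TPM with *Uba1* siRNAs. The groups did not overlap (log2FC 0.19, SE 0.0715, adjusted p = 0.220 from limma; exact permutation test, p = 0.0286), and the scaled log2FC was 0.10. *Usp12* was at 12.6, 13.0, 12.4 and 11.9 TPM with NT and at 11.7, 11.1, 13.1 and 10.6 TPM with *Uba1* siRNAs. It was lower in 3 of 4 mice, all but mouse 3, and had the lowest log2FC of the members (-0.10, SE 0.0738, adjusted p = 0.479 from limma). After median-ratio scaling the log2FC of *Usp12* was -0.21, with an unadjusted p of 0.00628 and an adjusted p of 0.251 (limma). *Usp1*, which acts on FANCD2 and PCNA, was at 7.57, 6.71, 7.55 and 7.73 TPM with NT and at 7.93, 7.50, 7.42 and 7.23 TPM with *Uba1* siRNAs, so that the groups overlapped (log2FC 0.02, or -0.08 after scaling). Of its 50-base stretches, 21.9% also occur elsewhere among transcripts, mostly in *Gm5841*, so its TPM are uncertain. *Wdr48* itself had a log2FC of 0.15 (0.05 after scaling) and *Wdr20*, a further cofactor of *Usp12* and *Usp46*, of 0.05 (-0.05 after scaling).

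The 6 USPs of membranes and organelles were all tested, and 2 were higher at an unadjusted p under 0.05, or 0 after scaling (16.0% and 4.57% of all genes), with the highest list median of the roles (0.18, or 0.08 after scaling). *Usp32*, a Golgi and endosome protease, was at 4.19, 3.56, 4.16 and 4.76 TPM with NT and at 5.17, 5.38, 4.90 and 5.18 TPM with *Uba1* siRNAs. The groups did not overlap (log2FC 0.26, SE 0.0820, adjusted p = 0.182 from limma; exact permutation test, p = 0.0286), and the scaled value was 0.16. *Usp33*, first found as a partner of the VHL protein, was at 4.74, 4.61, 4.97 and 5.38 TPM with NT and at 6.05, 5.72, 5.84 and 5.30 TPM with *Uba1* siRNAs. It was higher in 3 of 4 mice (log2FC 0.18, adjusted p = 0.232 from limma, 0.08 after scaling), and 44.7% of its transcript lies under exons of the other strand. *Usp19* was at 51.6, 53.0, 54.8 and 54.6 TPM with NT and at 57.4, 51.0, 60.2 and 54.9 TPM with *Uba1* siRNAs. The groups overlapped, and its log2FC of 0.06 (95% interval -0.09 to 0.21) turned to -0.06 after median-ratio scaling. *Usp30*, which opposes Parkin on mitochondria, had a log2FC of 0.21 (0.12 after scaling) and was higher in 4 of 4 mice, with 47.8% of its transcript under *Alkbh2* on the other strand. *Usp8*, which acts on endosomes, and *Usp20*, the paralog of *Usp33*, had a log2FC of 0.12 and 0.17 (0.01 and 0.07 after scaling).

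Of the 12 tested USPs of signaling and other roles, 4 were higher at an unadjusted p under 0.05, against 16.0% of all genes, and the median was 0.12. After scaling 0 were higher, against 4.57% of all genes, and the median was 0.00024. These 4 are *Usp24*, *Usp34*, *Usp9x* and *Usp10*, the first 3 of which encode very large proteins. With the replicate block *Usp9x* no longer passed (unadjusted p = 0.0504, limma). *Usp24* was at 22.4, 22.1, 21.0 and 25.4 TPM with NT and at 23.5, 31.9, 27.7 and 28.6 TPM with *Uba1* siRNAs. It was higher in 4 of 4 mice, and the groups overlapped through NT replicate 4 and *Uba1* replicate 1 (log2FC 0.28, SE 0.0982, adjusted p = 0.208 from limma, 0.17 after scaling). *Usp9x*, X-linked and known from the fly as fat facets, was at 13.4, 14.0, 17.0 and 19.7 TPM with NT and at 20.3, 19.1, 19.3 and 18.1 TPM with *Uba1* siRNAs. The NT muscles were thus more spread than the *Uba1* muscles, and mouse 4 had the opposite order (log2FC 0.26, SE 0.113, adjusted p = 0.267 from limma, 0.15 after scaling). *Usp34*, a regulator of axin in Wnt signaling, was at 5.46, 5.49, 6.41 and 7.50 TPM with NT and at 6.89, 8.30, 7.91 and 7.62 TPM with *Uba1* siRNAs. It was higher in 4 of 4 mice (log2FC 0.27, adjusted p = 0.222 from limma, 0.17 after scaling), and 26.4% of its transcript lies under *Ahsa2* on the other strand. *Usp10*, which binds the stress granule protein G3BP1, was at 8.65, 8.30, 7.56 and 7.60 TPM with NT and at 9.09, 9.05, 10.2 and 8.58 TPM with *Uba1* siRNAs, with groups that overlapped narrowly (log2FC 0.18, adjusted p = 0.252 from limma, 0.07 after scaling).

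The other 8 tested signaling USPs did not reach an unadjusted p of 0.05 in limma. *Usp25* was at 37.8, 34.8, 36.5 and 44.9 TPM with NT and at 41.0, 42.1, 40.8 and 42.8 TPM with *Uba1* siRNAs. Its groups overlapped through NT replicate 4 (log2FC 0.12, 95% interval -0.07 to 0.30, or 0.00057 after scaling). *Usp4* and *Usp15*, paralogs that act in TGF-beta signaling, had a log2FC of 0.11 and 0.03 (-9.95e-05 and -0.08 after scaling). *Usp11*, their X-linked paralog, begins 20714 bases beyond the end of *Uba1* on the same strand of chromosome X (*Usp11* at chrX:20570133-20586781). It was the lowest tested member, at 1.34, 1.13, 1.41 and 1.31 TPM with NT and at 2.00, 1.65, 1.71 and 1.27 TPM with *Uba1* siRNAs. The *Uba1* leg was higher in 3 of 4 mice and the groups overlapped through *Uba1* replicate 4 (log2FC 0.20, SE 0.0998, adjusted p = 0.314 from limma, 0.13 after scaling). This neighbor of the targeted gene was thus not lower on average in the muscles with less *Uba1* mRNA.

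The 8 tested USPs of chromatin had the lowest list median of the USP roles (0.05, or -0.05 after scaling), with 2 of 8 above the all-gene median and 0 at an unadjusted p under 0.05 (16.0% of all genes were higher and 1.98% lower). *Usp22*, the deubiquitinase of the SAGA complex, was at 8.04 to 9.52 TPM with NT and 8.18 to 9.86 TPM with *Uba1* siRNAs, and it differed by 1.02-fold to 1.06-fold between the legs of each mouse (log2FC 0.04, or -0.06 after scaling). *Usp7*, which stabilizes MDM2 and p53, was at 18.4 to 22.1 TPM with NT and 19.8 to 22.2 TPM with *Uba1* siRNAs (log2FC 0.11, or -0.0036 after scaling). *Usp16*, a histone H2A deubiquitinase, and *Usp42* had a log2FC of -0.01 and -0.05 (-0.12 and -0.14 after scaling). With *Usp12*, these were the members below 0 with TPM as deposited. Among the partners of *Usp22* in SAGA, the log2FC was 0.23 for *Atxn7* (0.13 after scaling, adjusted p = 0.197 from limma) and 0.17 for *Eny2* (0.06 after scaling, adjusted p = 0.243), while for *Atxn7l3* it was 0.08 (-0.03 after scaling, adjusted p = 0.577). *Atxn7* and *Eny2* were the 2 of 9 tested USP cofactors higher at an unadjusted p under 0.05, against 16.0% of all genes, and after scaling 0 were higher and 1 lower (4.57% and 6.11% of all genes).

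The 3 USPs with an atypical catalytic site were tested and none reached an unadjusted p under 0.05 (16.0% of all genes were higher and 1.98% lower). *Usp39* was at 14.5 to 16.0 TPM with NT and 15.8 to 18.1 TPM with *Uba1* siRNAs (log2FC 0.11, or -0.0046 after scaling). *Usp53* and *Usp54*, whose protease activity was long in doubt, had a log2FC of 0.24 and 0.13 (0.16 and 0.04 after scaling). *Usp53* was at 1.36, 1.20, 1.62 and 2.35 TPM with NT and at 2.12, 2.36, 1.96 and 1.86 TPM with *Uba1* siRNAs, so that mouse 4 had the opposite order to the other 3 mice.

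**Figure D3:**
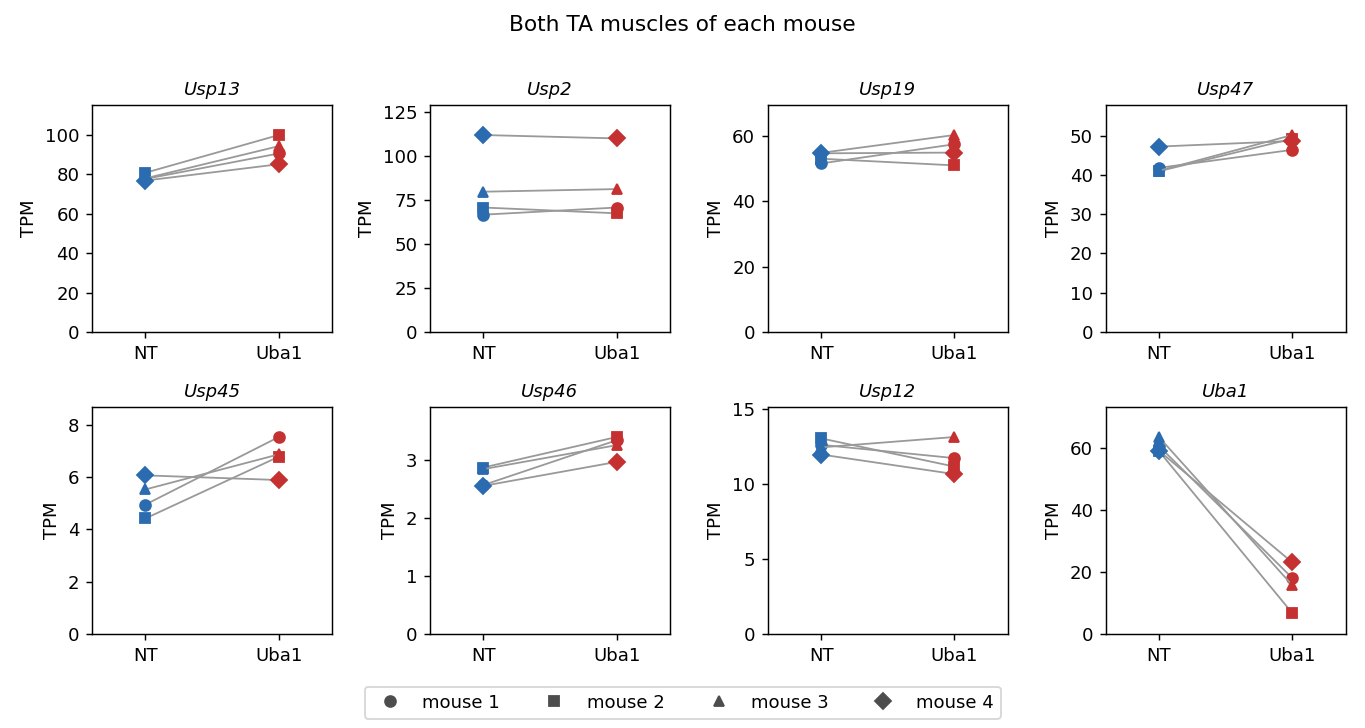
Level (TPM, axes from 0) of 7 Usp mRNAs and of *Uba1* in the NT leg (blue) and the *Uba1* leg (red) of each mouse, with a symbol for each mouse and lines that join its legs. *Usp13* and *Usp46* are higher in the *Uba1* leg of 4 of 4 mice, *Usp2* differs between mice (66.7 to 112 TPM in NT legs) more than between legs, and *Uba1* is lower in 4 of 4.

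*Usp2* stood out by a difference between mice. It was at 66.7, 70.8, 79.8 and 112 TPM in the NT muscles of mice 1 to 4 and at 70.8, 67.5, 81.3 and 110 TPM in their *Uba1* muscles. Both legs of mouse 4 were above all other muscles, and the legs of a mouse differed by at most 1.06-fold. The highest mouse mean was 1.62 times the lowest, the largest such ratio among the 41 members, followed by 1.39 for *Usp20*, with a median of 1.14. Across all genes tested the median ratio was 1.22 and 12.5% of genes had a ratio at least as large as that of *Usp2*. Legs within 1.1-fold of each other in every mouse, a limit set after the values were seen, were found for 463 genes, 5 of them Usp members. Of the 463, 6, *Usp2* included, had a ratio between mice at least as large as that of *Usp2*. Between siRNAs, the log2FC of *Usp2* was 0.0044 (SE 0.190), and its 95% interval (-0.42 to 0.43) was the widest of the family in the fit without the mouse. After median-ratio scaling the log2FC of *Usp2* was -0.11. The time of day of collection is not given in the sources used here.

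The 6 members known from muscle studies (*Usp1*, *Usp2*, *Usp13*, *Usp14*, *Usp19* and *Usp25*) had a median log2FC of 0.09, with 3 of 6 above the all-gene median and 3 of 6 above 0 after scaling. Of these 6, *Usp13* was the only one at an unadjusted p under 0.05, where 16.0% of all genes were higher.

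Ratios between related USP mRNAs within a muscle do not depend on how muscles are scaled to each other. Of 17 such ratios, 4 did not overlap between the groups, each with an exact permutation p of 0.0286 (two-sided), which became 0.121 after adjustment over the 17. How often ratios of other gene pairs do not overlap was not computed, so that 4 of 17 cannot be set against a background. *Usp12* mRNA was 4.36 to 4.90 times the level of *Usp46* in NT muscles and 3.28 to 4.02 times in *Uba1* muscles (4.61 ± 0.226 and 3.59 ± 0.312, SD, n = 4 each). *Usp16* was 1.53 to 1.98 times the level of *Usp45* with NT and 1.21 to 1.47 times with *Uba1* siRNAs. Exons of the other strand cover 20.2% of the *Usp16* transcript and 13.5% of the *Usp12* transcript, so their TPM are less certain. *Usp47* was 2.14 to 2.23 times the level of *Usp7* with NT and 2.26 to 2.37 times with *Uba1* siRNAs, a small difference between tightly spaced muscles. The fourth ratio, *Usp37* to *Usp29*, rests on a gene with under 1 TPM (6.12 to 10.6 with NT and 11.9 to 23.3 with *Uba1* siRNAs). For *Usp13* and *Usp5* the ratio was 2.56 to 2.94 with NT and 2.82 to 3.80 with *Uba1* siRNAs, and the groups overlapped (exact permutation test, p = 0.114, adjusted 0.278). None of the 17 passed the adjustment. The 4 ratios without overlap were already at 0.0286, the smallest p that 4 against 4 muscles allow. With 4 of 17 at this p, none could pass, however far apart the groups lay. The adjusted values therefore cannot tell whether these 4 ratios differ.

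**Figure D4:**
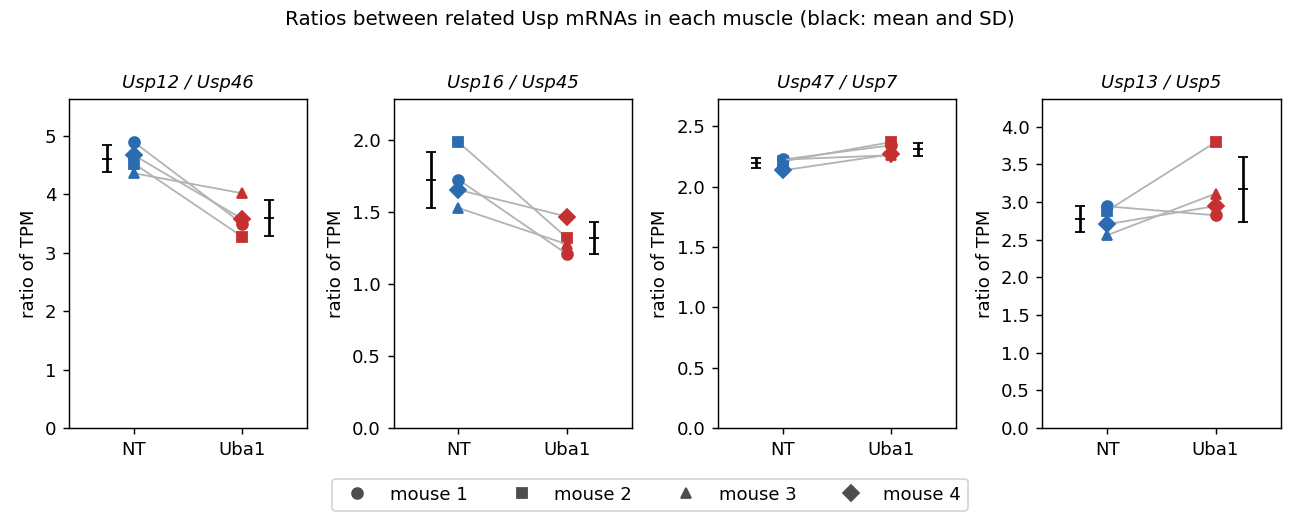
Ratio of TPM between related Usp mRNAs (axes from 0) in the NT leg (blue) and *Uba1* leg (red) of each mouse, with group mean and SD (n = 4) in black. The ratio *Usp12* to *Usp46* is 4.36 to 4.90 with NT and 3.28 to 4.02 with *Uba1* siRNAs, whereas the ranges for *Usp13* to *Usp5* overlap.

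Of the 16 members that were not tested, 7 were listed at 0 TPM in all muscles, namely *Usp17lb*, *Usp17lc*, *Usp17ld*, *Usp17le*, *Usp26*, *Usp46os1* and *Usp46os2*. *Usp51*, *Usp17la* and *Usp9y*, the Y-linked paralog of *Usp9x*, were above 0 in 1 muscle each, at 0.0293, 0.0252 and 0.0167 TPM. *Usp35* was the highest of this group, at 0.495 to 0.910 TPM with NT and 0.684 to 1.08 TPM with *Uba1* siRNAs. *Usp44* (0.254 to 0.598 TPM), *Usp43* (0.299 to 0.379 TPM), *Usp27x* (0.141 to 0.272 TPM) and *Usp50* (0.0206 to 0.156 TPM) followed. *Usp29*, an imprinted gene next to *Peg3*, was at 0.196, 0.182, 0.311 and 0.210 TPM with NT and at 0.116, 0.0814, 0.164 and 0.131 TPM with *Uba1* siRNAs. The groups did not overlap (exact permutation test on TPM, two-sided, p = 0.0286), but the gene was picked out after its values were seen, 34.2% of its transcript lies under *Zim3* on the other strand, and TPM keep no read counts, so that its counting error is unknown.

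Long transcripts were frequent among the members with a low p. The 11 members at an unadjusted p under 0.05 had a median canonical transcript of 6009 bases, against 4709 bases for the other 30. Of the 9 tested members with 7000 bases or more, 5 were among the 11, while 21.3% of all genes tested of that length were higher at this threshold. Spearman's rho between log2FC and length was 0.39 across the 41 members and 0.15 across 11307 genes, with genes of the same libraries as points. By mouse, rho was 0.11, 0.42, 0.19 and 0.03 for the members and -0.18, 0.26, 0.21 and 0.05 for all genes, so that it was highest in mouse 2 and near 0 in mouse 4. The part of transcript length or RNA quality in the differences was not tested. Of the tested members, 16 have no exon of another gene on the other strand, among them *Usp13*, *Usp19*, *Usp25*, *Usp32* and *Usp45*.

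Genes of other deubiquitinase families or with a USP fold were listed for comparison, and not all of them encode active deubiquitinases. Of the 44 listed genes 40 were tested, 9 were higher and 2 lower at an unadjusted p under 0.05 (16.0% and 1.98% of all genes), and the median log2FC was 0.10, against 0.12 for the Usp members. After scaling 2 were higher and 6 lower (4.57% and 6.11% of all genes), and 19 of 40 were above 0. *Cyld*, which has a USP fold and removes linear and K63-linked chains, was at 4.55, 4.12, 4.47 and 5.52 TPM with NT and at 6.65, 7.08, 6.21 and 6.11 TPM with *Uba1* siRNAs, without overlap (log2FC 0.41, SE 0.0888, adjusted p = 0.134 from limma, 0.31 after scaling). The 2 lower genes belong to the OTU family and lie far outside the range of the Usp members. *Otud1* was at 75.2, 130, 94.5 and 128 TPM with NT and at 19.6, 24.3, 26.3 and 54.2 TPM with *Uba1* siRNAs (log2FC -1.83, SE 0.296, adjusted p = 0.0646 from limma, or 0.00984 with the replicate block). *Tnfaip3*, which encodes the NF-kB inhibitor A20, had a log2FC of -1.23 (SE 0.194, adjusted p = 0.0644 from limma, or 0.0560 with the block). No Usp member had an interval that reached either value.

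**Figure D5:**
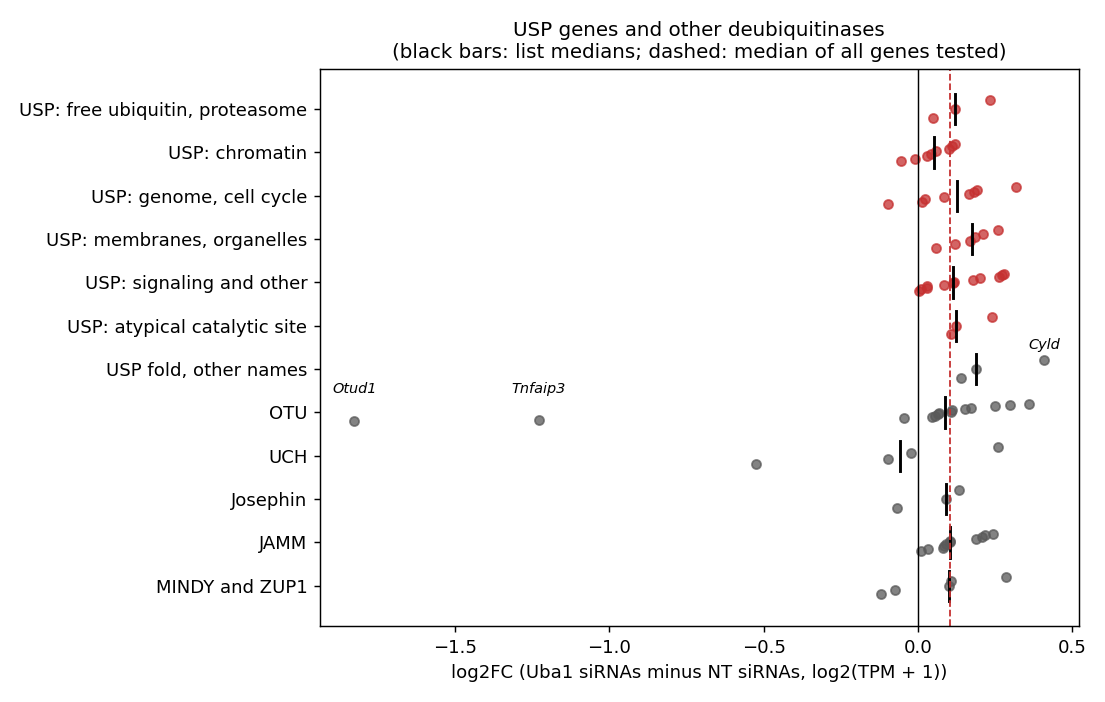
log2FC (*Uba1* minus NT siRNAs, on log2(TPM + 1)) of tested Usp genes by role (red) and of the tested genes listed for comparison by family (gray), with list medians as black bars and the median of all genes tested (0.11) as a dashed line. The Usp genes lie between -0.10 and 0.32, while *Otud1* (-1.83) and *Tnfaip3* (-1.23) lie far to the left.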

How the data were processed

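RNA-seq of 8 TA muscles (4 with NT and 4 with *Uba1* siRNAs) was used. Libraries were made with TruSeq RNA Sample Prep v2, a kit that does not mark strand. Reads were trimmed by the authors, mapped in CLC Genomics Workbench against GRCm39 and deposited as TPM per gene. TPM keep no read totals, so that counting errors are unknown and the number of muscles limits the precision. The annotation used by the authors and the treatment of reads that match several genes are not given in the sources used here. All columns were assigned to a sample by title.

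Genes with 4 or more muscles at 1 TPM or above were tested with limma 3.58.1 (R 4.3.3; lmFit, eBayes with trend) on log2(TPM + 1), unpaired and two-sided, with Benjamini-Hochberg adjustment over all 11530 genes. The code was checked on data made with known changes of 2 (log2), a size above every difference of the members, so that the check does not show what the test could find among them. Single values had exact permutation tests (scipy 1.17.1). Ratios between related genes, the spread between mice, length and the Cys box were examined after seeing the data.

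Members and lists were chosen with earlier results of these data known. Genes given in every muscle were members at an unadjusted p under 0.05, the 5 with the highest mean TPM, those known from muscle studies, *Usp11* and *Usp9x*. Members that passed with the replicate block were to be added, but there were none. *Uba1*, *Usp12*, *Usp29* and *Usp53* were also given in every muscle, and other members by range, log2FC or count. Of the 3 other deubiquitinases of lowest p, *Cyld* and *Otud1* were given in every muscle and *Tnfaip3* by log2FC. Same-numbered muscles are the legs of a mouse (labels and methods), and their deviations from group means correlated at -0.00037, 0.20, 0.58 and 0.54, so a fit with the mouse as replicate block was an alternative. Other alternatives were a pseudocount of 0.1, no filter, a mean of 5 TPM or more, median-ratio scaling, that scaling with the block, the Kruskal-Wallis test, and leaving out each muscle. Positions, exons and lengths come from GENCODE M39, in which 37033 of the 41709 symbols were found.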

Additional observations from a re-analysis of the deposited data

Results flagged for a closer look

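For 6 of the 84 groups of 4 muscles examined (41 members and *Uba1*, with NT and with *Uba1* siRNAs), the highest or lowest muscle stood apart from the other 3 by Dixon's test, where chance gives about 1 in 20 groups (4.2 of 84). NT replicate 4 was the highest NT muscle for *Usp47* (47.2 TPM, others 40.9 to 41.8), *Usp7* (22.1 TPM, others 18.4 to 18.8) and *Usp15* (18.9 TPM, others 16.8 to 17.1). NT replicate 3 was apart for *Usp20* (4.46 TPM, others 3.66 to 3.73). Among *Uba1* muscles, replicate 1 was the lowest for *Usp42* (2.56 TPM, others 3.01 to 3.07) and replicate 3 the highest for *Usp31* (3.29 TPM, others 2.61 to 2.70).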

How the results depend on the processing

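No Usp member passed the adjusted p under any alternative, while between 0 and 69 of all genes did. The number at an unadjusted p under 0.05 and higher was 11, fell to 1 with median-ratio scaling (4.57% of all genes) and to 0 with the replicate block and that scaling (7.19%), and ranged from 5 to 12 when 1 muscle was left out; with the replicate block alone it was 10 (22.4% of all genes) and with the Kruskal-Wallis test 11 (17.5%). The number lower was 0, and 1 of 50 with no filter (*Usp29*, against 1.74% of all genes), 1 with median-ratio scaling (*Usp12*, against 6.11%) and 2 with that scaling and the block (*Usp2* and *Usp12*, against 8.47%). The median of the members minus that of all genes was 0.0113, and lay between -0.0104 and 0.0595 under the alternatives other than the Kruskal-Wallis test, for which it was not computed.

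Of 684 values for 50 genes (the 41 tested members, *Uba1* and 8 other genes of the text), 618 kept their direction and side of the adjusted threshold, 11 moved past it (*Uba1*, *Otud1* and *Tnfaip3*) and 55 reversed. With median-ratio scaling, with or without the replicate block, 17 members reversed, to -0.1134 for *Usp2*, -0.0837 for *Usp40*, -0.0831 for *Usp15*, -0.0823 for *Usp1*, -0.0654 for *Usp37*, -0.0647 for *Usp5*, -0.063 for *Usp22*, -0.0627 for *Usp3*, -0.058 for *Usp19* and *Usp31*, -0.0416 for *Usp36*, -0.0305 for *Usp28*, -0.0212 for *Usp38*, -0.0046 for *Usp39*, -0.0036 for *Usp7*, -0.0019 for *Usp21* and -0.0001 for *Usp4*, as did *Wdr20* (-0.0503) and *Atxn7l3* (-0.0254). With 1 muscle left out 9 members changed sign. *Usp2* ranged from -0.1423 to 0.161 (below 0 without NT replicates 1, 2 or 3 or *Uba1* replicate 4), *Usp1* from -0.0173 to 0.0425 (NT replicate 2 or *Uba1* replicate 1), *Usp3* from -0.0186 to 0.0737 (NT replicate 4 or *Uba1* replicate 3), *Usp31* from -0.0344 to 0.0854 and *Usp40* from -0.0112 to 0.0427 (NT replicate 2 or *Uba1* replicate 3), *Usp37* from -0.0243 to 0.0362 (NT replicate 2), *Usp22* from -0.002 to 0.089 (*Uba1* replicate 4) and *Usp28* from -0.0061 to 0.1611 (*Uba1* replicate 3). *Usp16*, at -0.01, ranged from -0.0325 to 0.042 and was above 0 without NT replicate 4 or *Uba1* replicate 4. The mouse numbers pair the legs by design, and the block changed no call of a member at the adjusted threshold. *Usp9x* went from an unadjusted p of 0.0443 to 0.0504 with the block (limma).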
